A study of Homo sapiens with 2 samples.

Results

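The mRNAs of NADH dehydrogenase, respiratory complex I, that are encoded by the mitochondrial genome were examined in RNA co-precipitated with LRPPRC. The members are the 6 rows named MT-ND1, MT-ND2, MT-ND3, MT-ND4, MT-ND5 and MT-ND6 in a table of 21262 genes, of which 16802 rows carry a gene name. They were chosen by name, with earlier results of these data known. All 6 had values above 0 in both libraries. MT-ND4L, the remaining complex I gene of this genome, was looked for but had no matching row, so it was not analysed here.

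The cells were A549, an established human lung adenocarcinoma line with an epithelial label and a genotype given as WT. Lysates were incubated with 2 μg of anti-LRPPRC antibody, and the RNA recovered on protein A/G beads was sequenced as stranded total RNA, giving 2 libraries of 1 condition. The series description calls the replicates technical and the text of the study calls them biological, so their spread may be technical only. Values are FPKM, fragment numbers divided by transcript length and by library size, so they are levels per length in the precipitate. They are not divided by levels in the cell, and neither input nor IgG RNA was analysed here. The values summed to 196627 FPKM in replicate 1 and 194839 in replicate 2, and the depth of both is unknown. The keratins KRT8 and KRT18 had 337 and 51.1 FPKM. Of the 9 epithelial and A549 markers listed, 5 had a mean above 30, whereas EPCAM had 0.430 FPKM and CDH1 1.33. These are levels in the precipitate of pooled cells. Fewer cells with an mRNA, less of it per cell and less of it recovered with the antibody cannot be told apart. The 9 measured markers of blood, endothelium and fibroblasts were all below 1 FPKM, with summed levels of 0.0357 to 0.942 per list and library, and the blood marker LYZ was listed at 0 in replicate 1.

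Complex I takes electrons from NADH at the entry of the respiratory chain and pumps protons across the inner mitochondrial membrane. Its mitochondrially encoded subunits form the core of the membrane arm, and the remaining subunits are made from nuclear genes in the cytosol. The mitochondrial genome is transcribed from both strands into long precursors. Most mRNAs come from the heavy strand and are released by excision of the tRNAs between them, while MT-ND6 is the only mRNA of the light strand. LRPPRC, together with its partner SLIRP, is known for stabilising mitochondrial mRNAs and promoting their polyadenylation. MT-ND6 mRNA is known as the exception that lacks a poly(A) tail and does not depend on LRPPRC for its stability.

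The genes of the members show how their reading frames begin and end. The positions are those of GRCh38 with GENCODE 44 annotation, and the letters are those of the reference genome, as DNA, 5′ to 3′ in the sense of the mRNA. MT-ND1 lies at chrM:3307-4262, MT-ND2 at chrM:4470-5511, MT-ND3 at chrM:10059-10404, MT-ND4 at chrM:10760-12137 and MT-ND5 at chrM:12337-14148, all on the plus strand. MT-ND6 lies at chrM:14149-14673 on the minus strand. The genes have no intron, and the annotated gene is the reading frame, so its ends need not be those of the mature mRNA. The opening 45 bases are shown with the start codon in capitals, because the members differ in it.

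MT-ND1: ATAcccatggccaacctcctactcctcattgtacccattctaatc
MT-ND2: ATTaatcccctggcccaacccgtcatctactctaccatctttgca
MT-ND3: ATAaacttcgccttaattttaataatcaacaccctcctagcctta
MT-ND4: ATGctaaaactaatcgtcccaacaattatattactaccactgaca
MT-ND5: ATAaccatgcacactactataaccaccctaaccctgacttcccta
MT-ND6: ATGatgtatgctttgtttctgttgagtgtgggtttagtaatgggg

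Only MT-ND4 and MT-ND6 open with ATG. MT-ND1, MT-ND3 and MT-ND5 open with ATA and MT-ND2 with ATT, which mitochondrial ribosomes also read as starts. The closing 45 bases are shown next, with the encoded part of the stop codon in capitals, since it marks where a poly(A) tail completes the codon.

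MT-ND1: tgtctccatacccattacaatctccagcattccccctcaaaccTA
MT-ND2: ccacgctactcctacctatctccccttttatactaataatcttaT
MT-ND3: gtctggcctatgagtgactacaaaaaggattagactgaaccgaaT
MT-ND4: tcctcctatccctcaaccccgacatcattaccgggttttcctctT
MT-ND5: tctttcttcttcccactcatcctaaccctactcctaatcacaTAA
MT-ND6: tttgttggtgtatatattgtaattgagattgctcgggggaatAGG

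MT-ND5 and MT-ND6 carry a whole stop codon, TAA and AGG, while MT-ND1 encodes 2 bases of it and MT-ND2, MT-ND3 and MT-ND4 encode 1. In these 4 heavy-strand members the codon is known to be completed by the poly(A) tail. The frames hold 318 codons before the stop in MT-ND1, 347 in MT-ND2, 115 in MT-ND3, 459 in MT-ND4, 603 in MT-ND5 and 174 in MT-ND6, with no internal stop in the mitochondrial code. MT-ND1 to MT-ND4 are followed directly by a tRNA gene of the same strand. MT-ND5 and MT-ND6 lie tail to tail, with 0 bases between them, and each is preceded by a tRNA gene of its own strand. The start of MT-ND4 overlaps the end of MT-ND4L by 7 bases, shown in capitals, and both are read from a shared mRNA.

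MT-ND4L/MT-ND4 at chrM:10740-10786: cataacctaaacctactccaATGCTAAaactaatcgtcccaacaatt

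The levels of the members in the LRPPRC precipitate spanned a range of 9.88 ± 0.581-fold (SD, n = 2), from MT-ND4 to MT-ND3. MT-ND4, a proton-pumping subunit of the membrane arm, had 126 FPKM in replicate 1 and 125 in replicate 2, with a mean of 125 ± 1.01 FPKM (SD, n = 2). It was the highest member in both libraries and alone made up 36.5% ± 0.755 (SD, n = 2) of the members' summed FPKM. MT-ND1, the subunit where the membrane arm meets the arm that binds NADH, had 72.9 and 73.9 FPKM, with a mean of 73.4 ± 0.758 (SD, n = 2). MT-ND2, another proton-pumping subunit, had 64.1 and 66.6 FPKM, with a mean of 65.4 ± 1.75 (SD, n = 2). These levels differed by less than those of any other pair of neighbours except MT-ND5 and MT-ND6, yet MT-ND1 was above MT-ND2 in both libraries, by 1.12 ± 0.0185-fold (SD, n = 2).

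The other members were lower. MT-ND5, the third of the pumping subunits, had 34.45 FPKM in replicate 1 and 34.49 in replicate 2, a mean of 34.5 ± 0.0222 (SD, n = 2) and the smallest spread of the 6. MT-ND6, a membrane arm subunit and the light-strand member, had 30.8 and 33.8 FPKM, with a mean of 32.3 ± 2.18 (SD, n = 2). MT-ND3, a short subunit whose loop lies near the quinone site, had 12.2 and 13.2 FPKM, with a mean of 12.7 ± 0.645 (SD, n = 2). In this order no 2 neighbours had overlapping values. The narrowest margin was between MT-ND5 and MT-ND6, whose means lay 2.18 FPKM apart, as much as the SD of MT-ND6 itself, so this pair did not differ beyond the spread of the libraries.

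**Figure D1:**
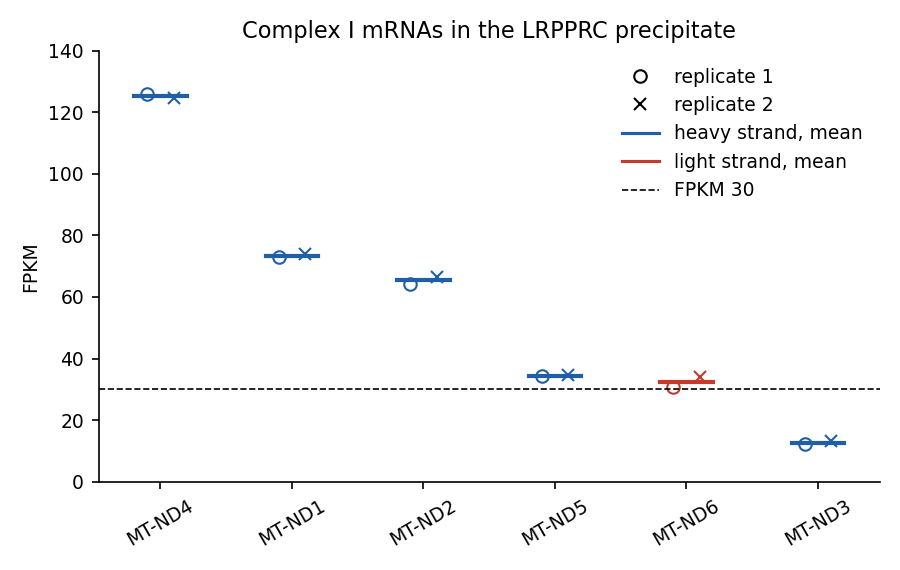
FPKM (y axis, linear from 0) of each complex I mRNA in both libraries, ordered by mean. Circles are replicate 1, crosses are replicate 2, short lines are the means and the dashed line is FPKM 30; MT-ND4 stands alone at the top, MT-ND6, in red, lies beside MT-ND5, and MT-ND3 is the only member below the line.

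Of the 6 members, 5 had a mean above FPKM 30, the threshold the study used for binding RNAs, against 13.6% of the 10441 named genes with at least 1 FPKM in both libraries. MT-ND3 was below it in both libraries. MT-ND6 was just above it, and at a threshold of 50 FPKM only MT-ND4, MT-ND1 and MT-ND2 passed. By mean FPKM among all named genes, MT-ND4 ranked 173, MT-ND1 418, MT-ND2 506, MT-ND5 1180, MT-ND6 1282 and MT-ND3 3315.

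MT-ND6 was within the range of the heavy-strand members. Its level was 0.480 of their median in replicate 1 and 0.508 in replicate 2, a mean ratio of 0.494 ± 0.0201 (SD, n = 2). It was below MT-ND4, MT-ND1, MT-ND2 and MT-ND5 in both libraries, and 2.54 ± 0.0426 times the level of MT-ND3 (SD, n = 2). Its ratio to MT-ND5, the gene it abuts, was 0.893 in replicate 1 and 0.981 in replicate 2. The ratio depends on which heavy-strand mRNAs it is set against. With those that have no close nuclear copy, MT-ND1, MT-ND3 and MT-ND5, the median is MT-ND5 and the ratio was 0.937. MT-ND6 itself has such a copy, so this ratio is not free of them. With FPKM multiplied by gene length, which approximates fragments, the ratio was 0.249. With 1 light-strand mRNA and 2 libraries, no test between the strands could be made.

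The strand also sets the letters of the mRNA. In the heavy-strand members cytosine made up 29.5% to 36.0% of the bases and guanine 9.5% to 11.7%. In MT-ND6 cytosine made up 7.0% and guanine 35.6%, as the runs of g in its printed ends show. At the last position of the codon the contrast was wider, with 3.4% cytosine and 35.1% guanine in MT-ND6 against 38.3% to 46.5% and 3.6% to 5.5% in the others. The summed share of guanine and cytosine was 42.7% in MT-ND6, inside the 40.2% to 47.7% of the heavy-strand members. Its adenine share, 19.6%, was below their 28.5% to 31.3%.

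Gene length and near-identical nuclear sequence were set beside the levels. MT-ND3, the lowest, has the shortest gene, with 346 bases, followed by MT-ND6 with 525. MT-ND5 has the longest, with 1812 bases, and was the fourth by FPKM. Multiplied by length in kb, the products were 173 for MT-ND4, 70.2 for MT-ND1, 68.1 for MT-ND2, 62.5 for MT-ND5, 17.0 for MT-ND6 and 4.40 for MT-ND3, in the same order as the FPKM. The part of length in the levels was not tested. Near-identical nuclear copies of mitochondrial DNA can take reads away, so the levels of genes with such a copy are uncertain. Counting copies that matched 95% or more of the bases across 50% or more of a gene, 3 members had one. For MT-ND2 it lies at chr1:629640-630681, annotated as the pseudogene MTND2P28, with 98.4% identity over the whole gene. For MT-ND4 it lies at chr5:134926661-134928036, annotated as MTND4P12, with 95.8%, and for MT-ND6 at chr5:134924123-134924646, annotated as MTND6P4, with 95%, right at the limit. MT-ND5 came just short of the limit, with 93.0% in the neighbouring MTND5P11. MT-ND1 had a close match over 36.8% of its length and MT-ND3 over 19.7%. The members with a copy had 125, 65.4 and 32.3 FPKM and those without had 73.4, 34.5 and 12.7. The effect of the copies was not tested.

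Antisense reads are a further limit for MT-ND6. The heavy-strand precursor runs across its gene, and the light-strand precursor runs across the other 5. The library kit keeps the strand of the RNA, but the sources used here do not give whether quantification took it into account. Without strand, reads of MT-ND6 and of any heavy-strand RNA opposite to it cannot be told apart. The level of MT-ND6 and its ratios to the heavy-strand members, that to MT-ND5 included, are uncertain for this reason.

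The members differed little between the libraries. On log2(FPKM + 1), replicate 2 minus replicate 1 was 0.13 for MT-ND6, 0.10 for MT-ND3, 0.05 for MT-ND2, 0.02 for MT-ND1, 0.0013 for MT-ND5 and -0.02 for MT-ND4. The median absolute difference of the members was 0.04, against 0.05 for the 10441 background genes. MT-ND6 differed most, and 17.2% of the background genes differed by more. Among the 3143 genes whose mean lay within the range of the members, 10.5% did. Of the other mitochondrial mRNAs, 4 of 5 were lower in replicate 2, while 5 of 6 members were higher. The largest difference was that of MT-CO3, at -0.16, and 13.1% of the background genes differed by more. These counts of signs include differences as small as the 0.0013 of MT-ND5 and were not tested. Among the background genes 43.8% were higher in replicate 2. The members made up 18.4% of the summed FPKM of the 11 measured mitochondrial mRNAs in replicate 1 and 19.9% in replicate 2. MT-ATP8, like MT-ND4L, had no matching row and is not in this sum. The shares are uncertain, because MT-CO1, MT-CO2, MT-CO3 and MT-ATP6 have close nuclear copies too.

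**Figure D2:**
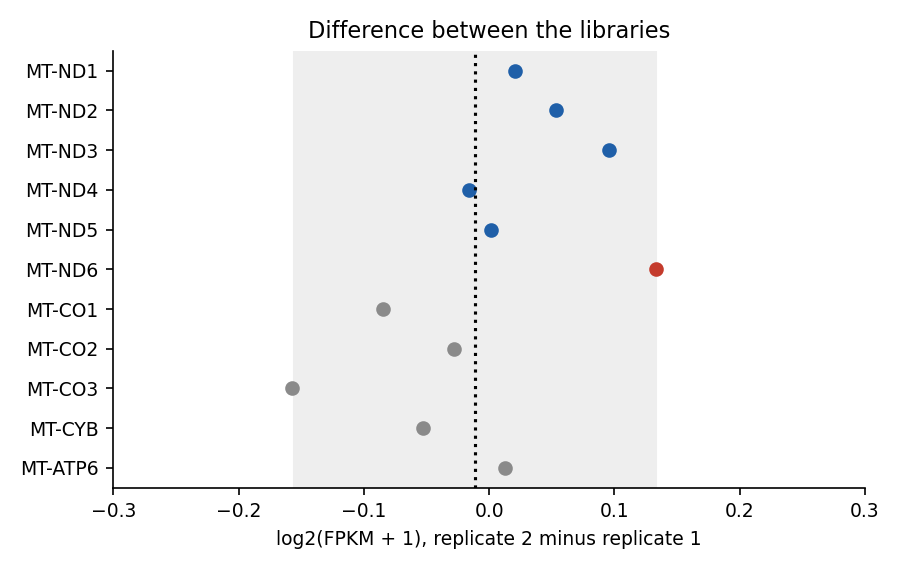
Difference between the libraries on log2(FPKM + 1), replicate 2 minus replicate 1 (x axis), for each mitochondrial mRNA (y axis). Blue and red points are complex I mRNAs, gray points are those of other complexes, the dotted line is the median of the background genes and the shaded band is 1 SD around it; MT-ND6, at 0.13, lies on the edge of the band and the other 5 members lie inside it.

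Set against the other mitochondrial mRNAs, the complex I mRNAs took the middle and the bottom of the range. The 5 mRNAs of other complexes had means from 23.3 FPKM, for MT-CO2, to 661 FPKM, for MT-CO3, with a median of 115 FPKM against 49.9 for the members. MT-CO3 was 5.28 ± 0.365 times MT-ND4 (SD, n = 2), the highest member. MT-ND3, the lowest of the 11, was 0.546 ± 0.0356 times MT-CO2 (SD, n = 2). Along the genome the levels neither rose nor fell steadily. MT-CO3 and MT-ND3, at opposite ends of the range, are separated only by the gene of a tRNA, MT-TG. MT-ND4, at 125 FPKM, was flanked among the measured mRNAs by MT-ND3 at 12.7 and MT-ND5 at 34.5. MT-ND1 and MT-ND2, the members nearest the start of the heavy-strand precursor, lay in the middle.

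**Figure D3:**
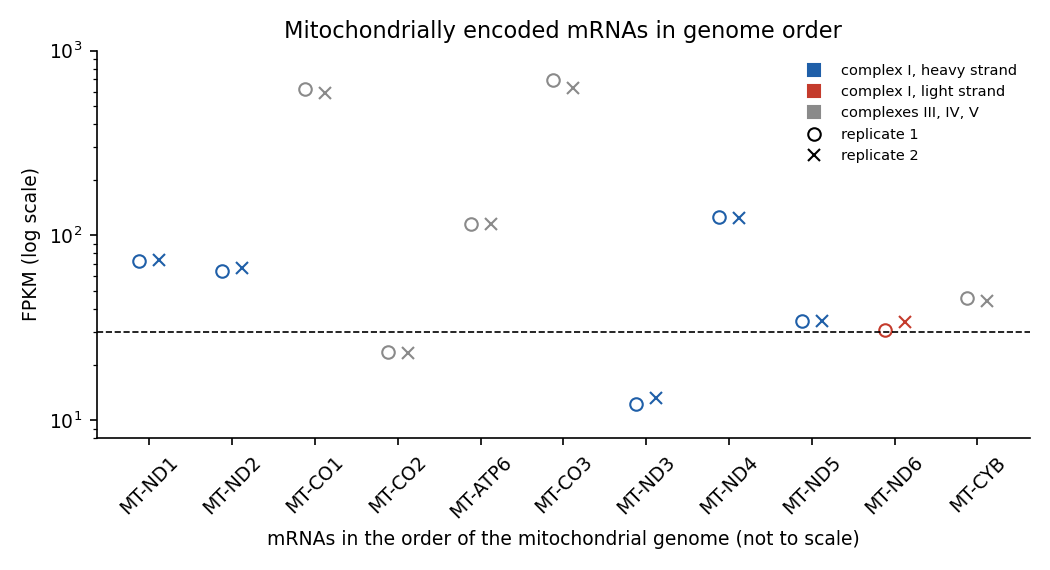
FPKM on a log scale (y axis) of the 11 mitochondrial mRNAs, in the order of the mitochondrial genome (x axis, not to scale). Circles are replicate 1 and crosses replicate 2; blue and red points are complex I mRNAs, and MT-CO3 and MT-ND3, side by side on the genome, are the highest and the lowest.

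Most nuclear-encoded subunits of the same complex had lower levels than the mitochondrial ones. All 37 listed nuclear subunits were measured. Their median was 3.77 FPKM, and 30 were below MT-ND3 by mean. A mean above FPKM 30 was found in 2 of them (5.41%), against 8.46% of all named genes. For the ratio, the 30 with at least 1 FPKM in both libraries were used. The median of the members was 8.98 ± 0.584 times theirs (SD, n = 2), and 5.74 times with means in place of medians. The members were also above genes in general. The median of the 10441 background genes was 6.83 FPKM in replicate 1 and 6.78 in replicate 2, against 49.3 and 50.5 for the members. The highest nuclear subunit was NDUFA2, an accessory subunit, at 76.2 ± 1.44 FPKM (SD, n = 2). NDUFAB1, the mitochondrial acyl carrier protein, followed at 32.0 ± 2.56 FPKM (SD, n = 2). NDUFA3 had 18.5 FPKM and NDUFB10 18.3. NDUFA2 and NDUFA3 share exonic bases with genes on the opposite strand, IK and TMCO6 for NDUFA2 and TFPT for NDUFA3, so their levels are uncertain. The same holds for NDUFS1, a core subunit whose exons overlap an antisense lncRNA gene. Such overlap was looked for only in the 4 highest nuclear subunits and those next to a member by level. It was not looked for in the other subunits, the assembly factors or the genes that handle mitochondrial RNA. The lowest nuclear subunits were NDUFB6 at 0.494 FPKM, NDUFA7 at 0.935, NDUFB5 at 0.951 and NDUFB11 at 0.974.

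The nuclear core subunits, which carry the flavin and the iron-sulphur clusters of the complex, were all below FPKM 30. NDUFV1, which holds the flavin, had 15.8 FPKM and NDUFS1, which carries iron-sulphur clusters, 13.4, and the lowest was NDUFS8 at 2.58. Only NDUFV1 and NDUFS1, the latter with its uncertain level, had a mean above that of MT-ND3. NDUFS1 had 14.3 and 12.5 FPKM and MT-ND3 12.2 and 13.2, so NDUFS1 was the lower of them in replicate 2. By level, the nearest nuclear subunit to MT-ND6 was NDUFAB1, at a distance of 0.01 on the log2 scale of the means. NDUFAB1 was the higher in replicate 1, with 33.8 against 30.8 FPKM, and the lower in replicate 2, with 30.2 against 33.8. Their means were therefore closer than their values in either library. NDUFAB1 was also nearest to MT-ND5, at 0.11. NDUFA2 was nearest to MT-ND1 at 0.05, to MT-ND2 at 0.22 and to MT-ND4 at 0.72, and NDUFS1, again uncertain for its antisense overlap, was nearest to MT-ND3 at 0.08. These distances rest on 2 libraries of 1 condition and give no pattern across conditions.

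**Figure D4:**
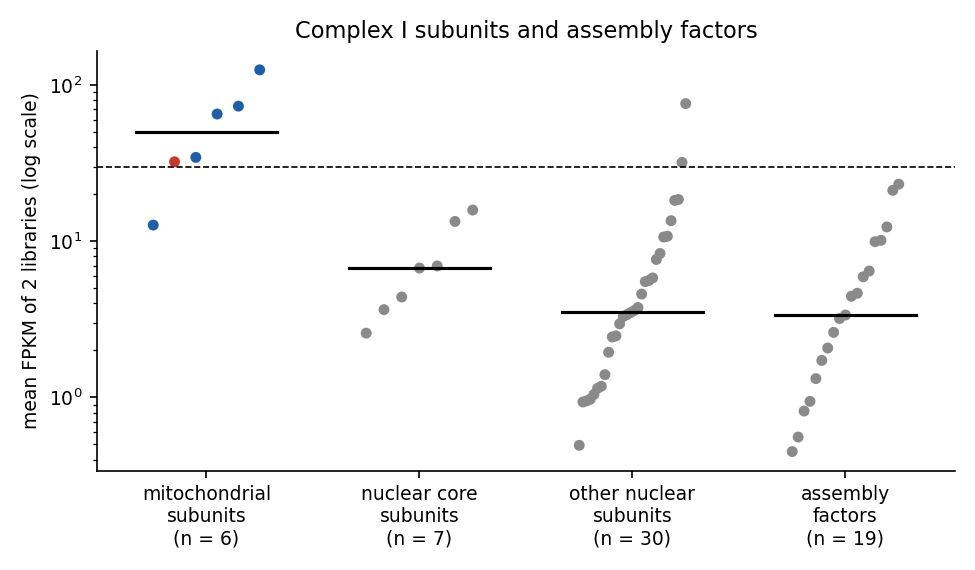
Mean FPKM of both libraries on a log scale (y axis) for the 6 mitochondrial subunits, the 7 nuclear core subunits, the 30 other nuclear subunits and the 19 assembly factors of complex I (x axis). Points are genes, lines are medians and the dashed line is FPKM 30. Above it lie 5 of the 6 mitochondrial subunits, 2 of the 37 nuclear ones, no assembly factor and 8.46% of all named genes (not shown).

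Assembly factors, which build complex I but are not part of it, were also low, with a median of 3.37 FPKM and 0 of 19 above FPKM 30. Their highest were DMAC2 at 23.2 FPKM and NDUFAF3 at 21.2, both above MT-ND3 and below MT-ND6 and both named after their values were seen. Among 21 genes that handle mitochondrial RNA, 2 (9.52%) were above FPKM 30, against 8.46% of all named genes. They were LRPPRC at 180 ± 5.51 FPKM (SD, n = 2) and the tRNA-processing nuclease ELAC2 at 104. ELAC2 was named after its value was seen. SLIRP, the partner of LRPPRC, had 7.67 FPKM, the poly(A) polymerase MTPAP 2.71, FASTK, required for MT-ND6 mRNA, 18.5, and GRSF1, an RNA granule protein that binds light-strand transcripts, 9.78.

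The study's own PCR primers for MT-ND1 and MT-ND2 fall inside these genes. The product for MT-ND1 spans 177 bases at chrM:3814-3990 and that for MT-ND2 spans 179 bases at chrM:4939-5117.

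ND1 forward: gaacacctctgattactc
ND1 reverse: gtattcggctatgaagaa
ND2 forward: tctcaatcttatccatcatagc
ND2 reverse: gaatgcggtagtagttagg

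Each primer matched the mitochondrial reference exactly and at a single position. The primers were not searched for in the nuclear genome, where MT-ND2 has the close copy described above. The gene of MT-ND1 had 73.4 FPKM and that of MT-ND2 65.4 FPKM over its whole length, and no coverage within the amplified stretches was analysed here.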

How the data were processed

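RNA immunoprecipitated with LRPPRC from A549 cells was sequenced in 2 libraries of 1 condition. Expression was deposited as FPKM per gene, computed by the authors. Per the methods and the submitters' processing notes, reads were trimmed with cutadapt 1.18, aligned to GRCh38 by HISAT2 2.1.0, sorted with SAMtools and quantified by StringTie 1.3.3b. Ratios and shares were computed within each library, and means and SDs over both. Low values (3255 genes under 0.3 FPKM) showed no steps of whole reads, since at most 1.57% shared a ratio within 0.02 on the log2 scale, so depth is unknown. With 1 condition no test was made. The members, the gene lists and the naming rule (all members, the highest and lowest 4 nuclear subunits, the core subunits and the nearest neighbours by level) were chosen with earlier results of these data known. Of the core subunits, 3 are named and the values of the others are not reported here. The range of levels used for background was set by the members' values. Of rows sharing a name (32 extra rows), the higher was used. Older symbols were matched through RefSeq synonyms. Positions and sequences came from GRCh38 with GENCODE 44, a later annotation than the authors'. Nuclear copies were searched by blastn 2.17.0. Share and ratio functions were tested on simulated data. Python 3.11.15, numpy 2.4.6, pandas 2.3.3, Biopython 1.88 and matplotlib 3.10.9 were used.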

Additional observations from a re-analysis of the deposited data

How the results depend on the processing

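Of 76 values recomputed under alternatives, 60 stayed within a set limit. The limit was the spread of the libraries or, for counts, a factor of 1.5. For the log2 ratios between the libraries it was instead the SD over the background genes, 0.145. That SD was larger than the main value of every member, so those ratios say nothing about stability. The 32 values from a single library were also among the 60. With 2 libraries each level lies within 1 SD of their mean by construction, so this too says nothing about stability. The order of the members was the same in replicate 1, in replicate 2 and with FPKM multiplied by length. On the TPM scale, a change of unit, MT-ND1 had 375 TPM, MT-ND2 334, MT-ND3 64.9, MT-ND4 640.4, MT-ND5 176 and MT-ND6 165. The ratio of MT-ND6 to the heavy-strand members was 0.249 with FPKM multiplied by length and 0.519 against their mean. Against those without a close nuclear copy it was 0.937, although MT-ND6 itself has such a copy. These ratios differ because other members or lengths enter. At a threshold of 50 FPKM, 3 members passed. The background share was 8.46% over all named genes, 21.1% at 20 FPKM and 6.89% at 50 FPKM. The median of the members over that of the nuclear subunits was 11.9 with FPKM multiplied by length, 12.8 over all measured subunits and 5.74 with means. No paired analysis was possible because the libraries belong to a single group. The depth is unknown, so the counting error behind each value cannot be given.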
